A study of Mus musculus with 12 samples.

Results

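Interferon-regulating transcription factors were followed in 3 cardiovascular diseases of mice, in bone marrow cells sorted and labelled as endothelial cells, although endothelial markers were far below neutrophil markers in every library. The 7 genes were Irf1, Irf2, Irf3, Irf5, Irf7, Irf9 and Stat2, chosen by symbol from the 55421 genes of the count table, and all 7 were among the 15999 genes with enough counts to be tested. Each group held 3 libraries, numbered 2, 3 and 4, from mice 20 weeks of age. Naive controls were untreated C57BL/6J mice. The hypertension group was C57BL/6J mice given angiotensin II, which the study's methods describe as released from minipumps for 8 weeks. The atherosclerosis group carried the Apoe knockout allele (Apoe(tm1Unc)) and, by the methods, ate a western diet for 10 weeks, so that genotype and diet differed from the controls together and cannot be told apart. The MI group was C57BL/6J mice after coronary ligation, sampled on day 2 by the labels and on day 4 by the methods. The same 3 controls entered every comparison with a disease, and no label says whether libraries with the same number share a day or a litter.

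Interferons bind receptors that activate JAK kinases, and these phosphorylate STAT proteins. Type I interferons act through a complex containing Stat2 and Irf9 that binds the interferon-stimulated response element (ISRE) in the promoters of target genes, whereas the response to interferon gamma runs mainly through the gamma-activated sequence (GAS). Irf3 is present before infection and switches on interferon genes when nucleic acids are sensed, Irf7 is itself a target of interferon and amplifies the response, Irf5 acts downstream of Toll-like receptors, Irf1 is induced by interferon gamma, and Irf2 competes with Irf1 for its sites. Plasmacytoid dendritic cells are known for high resting levels of Irf7.

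Promoter sequences of the factors are shown because these proteins bind ISRE and GAS motifs in their targets and some of the factors are themselves targets. RefSeq promoters on GRCm38.p6, reaching from 250 bases before to 50 bases after the start of transcription, were found for 7 of 7 genes (Irf1 and Irf9 had more than 1 window). Both strands were searched for the ISRE core (GAAA, any 2 bases, GAAA) and the GAS core (TTC, any 3 bases, GAA). Of 32851 promoters of the same length, 3.44% held the ISRE core and 8.3% the GAS core. Irf1, Irf2 and Stat2 held a match, and a stretch of 60 bases around it is given for each, with the match in capitals. Ifit1 and Isg15, antiviral genes known as interferon targets, are shown beside them with their ISRE cores in capitals, where neighbouring matches run together in Isg15. The Irf1 stretch (chr11:53769899-53769958, plus strand) held a GAS core whose first base lay 90 bases before the start. The Irf2 stretch (chr8:46739495-46739554, plus strand) held an ISRE core 241 and a GAS core 224 bases before the start. In Stat2 (chr10:128270251-128270310, plus strand) the ISRE core lay 222 bases before the start, read on the opposite strand. The Ifit1 stretch was chr19:34640760-34640819 on the plus strand, and the Isg15 stretch chr4:156200862-156200921 on the minus strand.
Irf1: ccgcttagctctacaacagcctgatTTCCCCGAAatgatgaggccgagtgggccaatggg
Irf2: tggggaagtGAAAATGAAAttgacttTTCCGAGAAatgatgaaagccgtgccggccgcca
Stat2: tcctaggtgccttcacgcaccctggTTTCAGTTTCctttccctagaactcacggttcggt
Ifit1: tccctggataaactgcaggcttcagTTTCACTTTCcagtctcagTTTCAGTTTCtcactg
Isg15: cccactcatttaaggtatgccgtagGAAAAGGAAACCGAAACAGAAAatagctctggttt

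Irf3, Irf5, Irf7 and Irf9 held neither core in their windows, which says only that these letters are absent there. The whole windows of Irf7 (chr7:141266375-141266674, minus strand) and of the first RefSeq start of Irf9 (chr14:55603735-55604034, plus strand) are given because these genes differed most between the disease groups. They are printed without capitals since they hold no match. The Irf9 windows begin inside the gene as annotated here, which starts at base 55603571. Sequence before that annotated start was not searched for Irf9.
Irf7: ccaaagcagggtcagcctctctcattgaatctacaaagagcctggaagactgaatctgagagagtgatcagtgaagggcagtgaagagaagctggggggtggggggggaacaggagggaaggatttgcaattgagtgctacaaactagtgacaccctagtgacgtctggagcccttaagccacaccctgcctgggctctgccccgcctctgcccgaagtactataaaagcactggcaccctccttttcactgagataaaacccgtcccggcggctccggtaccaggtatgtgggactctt
Irf9: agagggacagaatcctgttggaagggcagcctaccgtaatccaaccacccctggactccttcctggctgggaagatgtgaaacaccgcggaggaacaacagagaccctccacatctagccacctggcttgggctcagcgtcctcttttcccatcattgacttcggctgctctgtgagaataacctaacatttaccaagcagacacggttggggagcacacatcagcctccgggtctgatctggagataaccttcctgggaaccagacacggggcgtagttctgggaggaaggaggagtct

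Libraries held 17007088 to 25136936 counts assigned to genes. Apoe, the targeted gene, was at 7.28 to 14.8 CPM (a gene's counts scaled to a library total of 1000000) in the atherosclerosis libraries and at 450 to 1500 in all others. The libraries were labelled endothelial cells, and all 14 endothelial markers were detected, among them Pecam1 at 17.2 to 33.5 CPM and Cdh5 at 2.01 to 4.3 CPM. Levels of markers and of Apoe are CPM over the library's total, without further normalization. The summed endothelial level was 153 to 312 CPM, beside 35100 to 91700 CPM for 13 neutrophil markers and 1220 to 2240 CPM for 11 macrophage markers. MI library 2 stood apart, with the sum of 8 monocyte markers at 7610 CPM against 2030 to 3460 in the other 11 libraries. Chil3 alone made up 5470 CPM of that sum. In these mixed bulk samples, fewer cells of a type and less RNA per cell cannot be told apart.

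All 7 factors were expressed in every library, with no fewer than 534 counts. Levels of different genes were compared per length, as the median over 12 libraries of CPM per kilobase of exon. The exons of all annotated transcripts were merged for this length. For Irf7 the merged exons (3776 bases) cover the whole gene, and the order of the genes may depend on the length used. Irf5 was highest at 42.1 CPM per kilobase, followed by Irf7 at 26.5, Irf3 at 24.1, Irf9 at 14.7, Irf1 at 12.1, Irf2 at 8.46 and Stat2 at 5.66. The factors also differed in how far they varied. Between the lowest and the highest library Irf7 spanned a factor of 7.75 and Irf9 of 3.6, whereas Irf2 and Irf3 spanned 2.28, Irf1 1.89, Stat2 1.69 and Irf5 1.65.

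**Figure D1:**
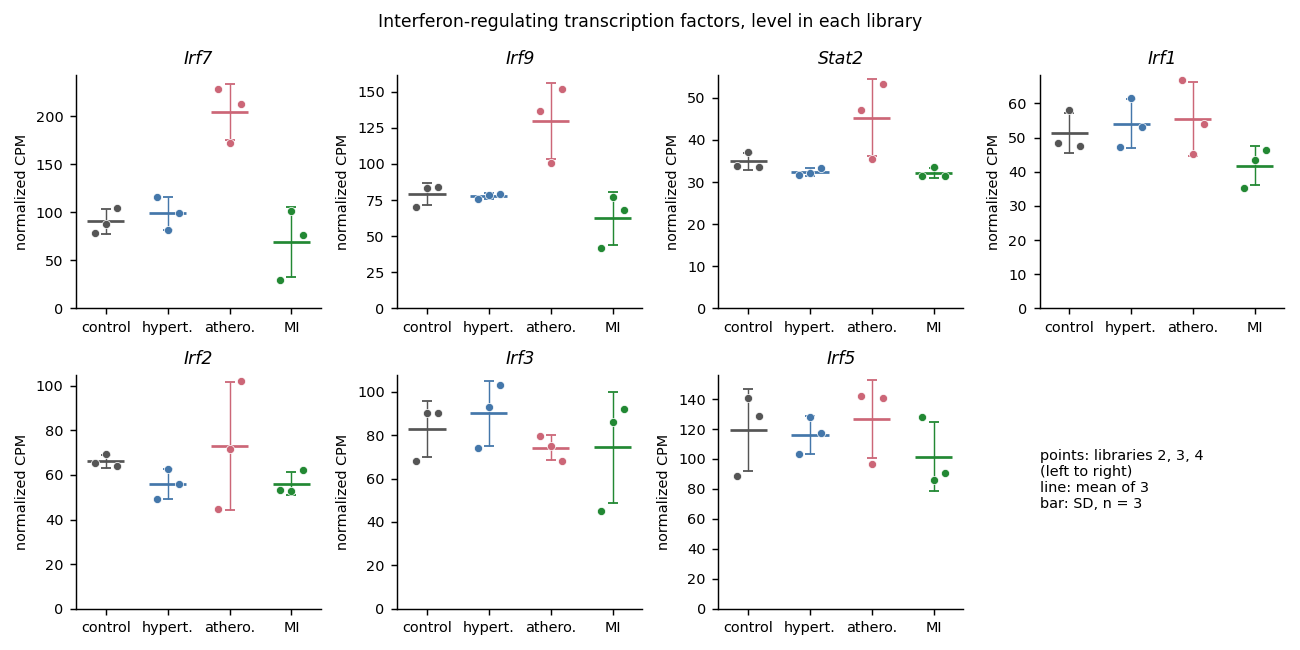
Level of each factor in every library, as normalized CPM on axes that start at 0. Points are libraries 2, 3 and 4 from left to right, lines are means and bars are SD (n = 3). For Irf7 and Irf9 the 3 atherosclerosis libraries lie above every other library, and MI library 2 is the lowest of all 12 for both.

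Atherosclerosis was compared with controls first, since it gave the widest differences. Levels of the factors are given as CPM after TMM normalization. Irf7 (ENSMUSG00000025498, chr7:141262706-141266481) measured 78.4, 88.4 and 105 CPM in control libraries 2, 3 and 4 and 228, 172 and 213 CPM in the atherosclerosis libraries. Every atherosclerosis library thus lay above every control. The log2 fold change was 1.17 (SE 0.33, 95% confidence interval 0.47 to 1.88), or 2.26-fold, with an unadjusted p of 0.00335, rank 132 of all genes, and an adjusted p of 0.402 (edgeR, quasi-likelihood F test, corrected by the Benjamini-Hochberg method for 15999 genes). The difference did not pass the threshold of 0.05.

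Irf9 (ENSMUSG00000002325, chr14:55603571-55610030), the DNA-binding partner of Stat2, measured 70.5, 83.5 and 83.9 CPM in controls and 137, 101 and 152 CPM in atherosclerosis. These groups did not overlap either. The log2 fold change was 0.71 (SE 0.21, 95% confidence interval 0.26 to 1.17; edgeR adjusted p = 0.467). Stat2 (ENSMUSG00000040033, chr10:128270559-128292849) measured 33.9, 37.2 and 33.6 CPM in controls and 47.1, 35.5 and 53.3 CPM in atherosclerosis. Atherosclerosis libraries 2 and 4 were above all controls and library 3 was within their range, for a log2 fold change of 0.38 (SE 0.15, edgeR adjusted p = 0.76).

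The other factors overlapped between atherosclerosis and controls. Irf1 (ENSMUSG00000018899, chr11:53770014-53778374) measured 48.4, 58.2 and 47.5 CPM in controls and 66.9, 45.3 and 54.0 CPM in atherosclerosis (log2 fold change 0.11, SE 0.18). Its competitor Irf2 (ENSMUSG00000031627, chr8:46739732-46847458) was between 63.9 and 69.5 CPM in controls and spread over 44.8, 71.8 and 102 CPM in atherosclerosis, a coefficient of variation of 39.4% against 4.39%. The atherosclerosis libraries thus held both the lowest and the highest Irf2 level of the series. For Irf3 (ENSMUSG00000003184, chr7:44997648-45002848) the log2 fold change was -0.16 (SE 0.24), the single negative value among the 7, and for Irf5 (ENSMUSG00000029771, chr6:29526625-29541871) it was 0.08 (SE 0.22).

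None of the 7 factors passed the adjusted threshold in this comparison, where 0.144% of all genes did (23 genes). All 3 atherosclerosis libraries were above all controls for 2 of the 7 factors, Irf7 and Irf9, and for 5.06% of all genes. Unadjusted p-values were under 0.05 for Irf7, Irf9 and Stat2, and for 5.97% of all genes. The median log2 fold change of the 7 was 0.14, beside 0.01 over all genes. It was 0.36 without atherosclerosis library 2, 0.24 without atherosclerosis library 3 and 0.21 without control library 3. Without atherosclerosis library 4 it was 0.125, with 4 of the 7 higher, and without control library 2 it was 0.127, with 5 higher. Irf3 and Irf7 lie on chromosome 7 with Apoe, 25.3 and 122 megabases from it, and sequence carried along with the knockout allele was not examined.

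**Figure D2:**
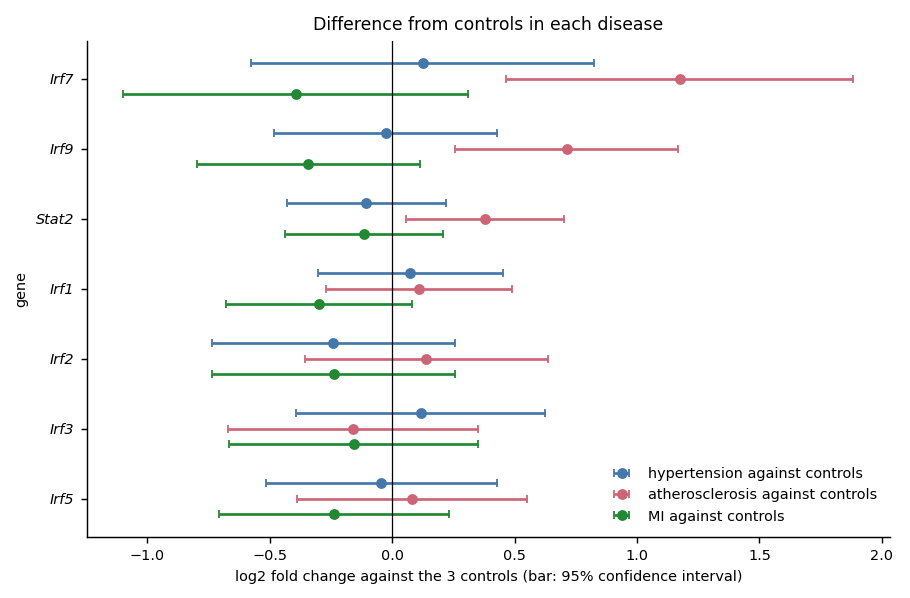
Log2 fold change of each factor against the 3 controls, with the 95% confidence interval from the edgeR fit. The interval stays above 0 for Irf7, Irf9 and Stat2 in atherosclerosis and spans 0 for all other points, and no factor passed after adjustment over all genes.

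Markers of other cells also differed between the groups. The summed level of 6 plasmacytoid dendritic cell markers, all 6 detected in the series and Siglech the most abundant, was 106, 112 and 106 CPM in controls, 122, 132 and 167 CPM in atherosclerosis, 94.7, 99.2 and 67.2 CPM in hypertension, and 47.9, 77.0 and 80.2 CPM after MI. Atherosclerosis was thus above all controls, and hypertension and MI below all of them. The sum was 1.30-fold the control mean in atherosclerosis, beside 2.26-fold for Irf7. Siglech itself overlapped, at 50.9 to 93.0 CPM in atherosclerosis and 49.5 to 55.5 CPM in controls. Cox6a2, Klk1 and Pacsin1 overlapped the controls in atherosclerosis too, whereas Ccr9 and Cd300c lay above all of them. In hypertension the marker sum was below all controls while Irf7 overlapped them. Among the single markers, Siglech and Pacsin1 lay below all controls there, whereas Ccr9, Cox6a2, Klk1 and Cd300c overlapped them.

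Macrophage markers (11 of 11 detected) were at 1680 to 2240 CPM in atherosclerosis and 1220 to 1560 CPM in controls, without overlap, and at 1550 to 2040 CPM in hypertension. The sum of 9 B cell markers was 203, 404 and 492 CPM after MI, below all controls (521 to 741 CPM). In hypertension the sums of 8 monocyte markers (2030 to 2590 CPM, against 3220 to 3460 in controls) and of 13 neutrophil markers (38300 to 54600 CPM, against 60400 to 79200) lay below all controls. MI library 2, the lowest for Irf7 and Irf9, held the lowest plasmacytoid dendritic cell and B cell sums and the highest neutrophil sum (91700 CPM). Atherosclerosis library 2, the highest for Irf1, Irf5 and Irf7 and the lowest for Irf2, was unusual as well. It held the highest macrophage (2240 CPM) and B cell (1230 CPM) sums and the lowest neutrophil sum (35100 CPM). The part of these cells in the levels of the factors was not tested.

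**Figure D3:**
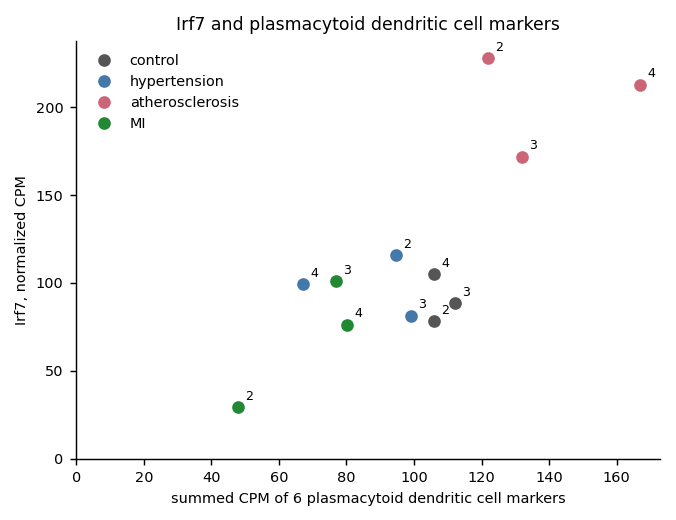
Irf7 in normalized CPM against the summed CPM of 6 plasmacytoid dendritic cell markers, 1 point per library, labelled with its replicate number and coloured by group. Atherosclerosis libraries are highest on both axes and MI library 2 is lowest on both, while hypertension libraries have marker sums below the controls at similar Irf7 levels.

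In hypertension the factors stayed near the control levels. Irf7 measured 116, 81.4 and 99.2 CPM, overlapping the controls (log2 fold change 0.12, SE 0.32). Irf9 measured 75.6, 78.6 and 79.5 CPM, the narrowest group of this gene with a coefficient of variation of 2.6% (log2 fold change -0.03, SE 0.21). Irf1 overlapped the controls as well, at 47.4, 61.7 and 53.2 CPM.

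Irf2 and Stat2 were the factors with all 3 hypertension libraries below all controls, 2 of 7 against a share of 7.81% over all genes. Irf2 measured 49.4, 62.8 and 55.8 CPM (log2 fold change -0.24, SE 0.23, edgeR adjusted p = 0.951). Stat2 measured 31.6, 32.2 and 33.4 CPM, and its lowest control, 33.6 CPM, was just above them (log2 fold change -0.10, SE 0.15, edgeR adjusted p = 0.955). Both differences were close to their standard error or below it. Across all genes, 0% passed in this comparison with edgeR's quasi-likelihood test (0 genes, against 594 at an unadjusted p under 0.05 and 0 with DESeq2).

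After MI all 7 factors had negative log2 fold changes, from -0.39 for Irf7 to -0.12 for Stat2, with a median of -0.24 beside 0.00 over all genes. The median was -0.13 without MI library 2. None passed the test, as for 0% of all genes (0 genes, against 448 at an unadjusted p under 0.05 and 1 with DESeq2). Irf7 measured 29.5, 101 and 76.3 CPM and Irf9 42.1, 77.4 and 68.1 CPM, so that library 2 was far below the controls and libraries 3 and 4 near them. MI library 2 was the lowest of all 12 libraries for 4 of the 7 factors, Irf1, Irf3, Irf7 and Irf9. Without this library the log2 fold change of Irf7 was -0.03 in place of -0.39, and that of Irf9 was -0.13 in place of -0.34.

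All 3 MI libraries were below all controls for 3 of the 7 factors, Irf1, Irf2 and Stat2, and for 4.59% of all genes. Irf1 measured 35.4, 43.6 and 46.3 CPM (log2 fold change -0.30, SE 0.18, edgeR adjusted p = 1). Irf2 measured 53.1, 53.0 and 62.3 CPM (log2 fold change -0.24, SE 0.23). Stat2 measured 31.5, 33.5 and 31.5 CPM, just under the lowest control.

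Irf3 was at 68.0, 90.4 and 90.4 CPM in controls, 73.9, 93.2 and 103 in hypertension, 79.7, 75.1 and 68.0 in atherosclerosis, and 45.0, 86.3 and 91.9 after MI. All 4 groups overlapped. Irf5 was at 88.6, 141 and 129 CPM in controls, 103, 128 and 117 in hypertension, 142, 96.6 and 141 in atherosclerosis, and 128, 85.8 and 90.8 after MI. Here too the spread within each group covered the differences between groups, and MI library 2, the lowest for Irf3, was the highest MI library for Irf5.

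The diseases were then compared directly, with each pair tested in the same fit. Between atherosclerosis and MI the difference of Irf9 was 1.06 on the log2 scale (SE 0.21, 95% confidence interval 0.60 to 1.51, edgeR adjusted p = 0.0596, rank 68 of all genes), and that of Irf7 was 1.57 (SE 0.33, 95% confidence interval 0.85 to 2.29, edgeR adjusted p = 0.0687, rank 91). Stat2 differed by 0.49 (SE 0.15, edgeR adjusted p = 0.21). All 3 atherosclerosis libraries were above all MI libraries for these 3 factors and for 7.44% of all genes, and no factor passed the threshold that 0.269% of all genes passed. Without MI library 2 the difference was 1.20 for Irf7 and 0.84 for Irf9. With the likelihood-ratio test of edgeR, the kind of test the study used, the adjusted p was 0.00206 for Irf9 and 0.00158 for Irf7, and with DESeq2 it was 0.00114 and 0.000686, so that the choice of test decided these calls.

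Between atherosclerosis and hypertension the same order was measured, with log2 differences of 1.05 for Irf7 (SE 0.33, edgeR adjusted p = 0.517), 0.74 for Irf9 (SE 0.21, edgeR adjusted p = 0.452) and 0.48 for Stat2 (SE 0.15, edgeR adjusted p = 0.517). The 3 factors were higher in every atherosclerosis library than in every hypertension library, as were 5.81% of all genes, while 0.0625% of all genes and no factor passed the adjusted threshold. Between MI and hypertension Irf1 was the single factor without overlap, lower in MI by a log2 difference of -0.37 (SE 0.18, edgeR adjusted p = 0.6), where 10.2% of all genes lay below in the same way and 0% passed (0 genes, against 1345 at an unadjusted p under 0.05 and 22 with DESeq2). Ordered by mean level, Irf7 ran from atherosclerosis through hypertension and controls to MI, and the last 3 of these groups overlapped.

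Ratios within a library do not depend on how libraries are scaled. The count ratio of Irf7 to Irf3 was 1.15, 0.978 and 1.16 in controls and 2.87, 2.29 and 3.13 in atherosclerosis, a mean of 1.10 ± 0.104 against 2.76 ± 0.43 (SD, n = 3). The groups did not overlap, and the 2-sided exact permutation test gave p = 0.1, the smallest value that 3 against 3 libraries allow (adjusted p = 0.3 over 12 ratio tests). The same ratio was 1.13 ± 0.375 (SD, n = 3) in hypertension and 0.886 ± 0.262 after MI, both overlapping the controls.

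Irf7 also exceeded Irf9 by more in atherosclerosis than in controls, with ratios of 1.67, 1.7 and 1.4 against 1.11, 1.06 and 1.25 (exact permutation p = 0.1, adjusted p = 0.3). The ratio of Irf9 to Stat2, partners in one complex, was 2.9, 2.86 and 2.85 in atherosclerosis and 2.08, 2.24 and 2.50 in controls, again without overlap (exact permutation p = 0.1, adjusted p = 0.3). Its spread in atherosclerosis was an SD of 0.03, although both genes varied between these libraries. In hypertension the activator Irf1 and its competitor Irf2 stood at ratios of 0.960, 0.982 and 0.952 against 0.743, 0.838 and 0.743 in controls (exact permutation p = 0.1, adjusted p = 0.3), while in atherosclerosis this ratio ran from 0.528 to 1.49.

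**Figure D4:**
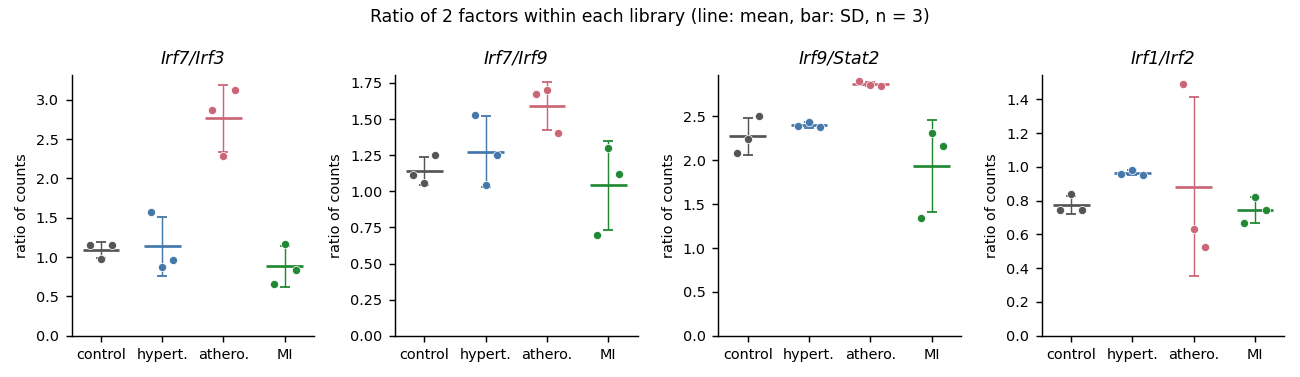
Ratio of the counts of 2 factors within each library, on axes that start at 0. Points are libraries 2, 3 and 4, lines are means and bars are SD (n = 3). Irf7/Irf3, Irf7/Irf9 and Irf9/Stat2 lie above all controls in atherosclerosis, and Irf1/Irf2 does so in hypertension.

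The other genes of the interferon pathway were described by lists. Of 20 type I interferon targets, 19 had positive log2 fold changes in atherosclerosis, with a median of 0.86 beside 0.01 over all genes. None passed the adjusted threshold (0.144% of all genes did), 13 had an unadjusted p under 0.05 (5.97% of all genes), and 13 had every atherosclerosis library above every control (5.06% of all genes). Rsad2, which encodes the antiviral protein viperin, was at 352 ± 62.3 CPM against 156 ± 33.7 in controls (SD; log2 fold change 1.18, SE 0.22, edgeR adjusted p = 0.0672). Oas2, a sensor enzyme for double-stranded RNA, was at 41.5 ± 18.8 against 10.1 ± 2.53 CPM (log2 fold change 2.04, SE 0.43, edgeR adjusted p = 0.155).

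In hypertension 16 of these 20 targets and after MI 19 of 20 had negative log2 fold changes, with medians of -0.15 and -0.45, and none passed. The MI median was -0.16 without MI library 2. The hypertension median was -0.27 without hypertension library 2, -0.25 without control library 2 and -0.07 without control library 4. The 2 smallest p-values in hypertension were those of Oas1a (log2 fold change -0.67, SE 0.27) and the helicase gene Ddx60 (-0.41, SE 0.22), both with an edgeR adjusted p of 0.951. After MI they were those of Ddx60 (-0.60, SE 0.22) and Ifi44 (-1.10, SE 0.52), both with an adjusted p of 1. Between atherosclerosis and MI 3 targets passed, beside 0.269% of all genes, namely Oas1a (log2 difference 1.58, edgeR adjusted p = 0.0344), Rsad2 (1.26, adjusted p = 0.0375) and Ifi44 (2.92, adjusted p = 0.0401). Oas1a also passed between atherosclerosis and hypertension (1.79, edgeR adjusted p = 0.0265), where 0.0625% of all genes did. These calls held without atherosclerosis library 2, and that of Ifi44 also without MI library 3, but they were lost without any other single library of the groups compared (adjusted p-values from 0.0627 to 0.157 against MI and from 0.0697 to 0.212 against hypertension). Of the 16 targets with a RefSeq promoter, 9 held the ISRE core, against 3.99% of all genes with one.

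Of 15 genes that respond to interferon gamma or Irf1, 12 had positive log2 fold changes in atherosclerosis (median 0.21) and 1 passed, beside 0.144% of all genes. The median was 0.12 without atherosclerosis library 4, 0.31 without control library 2 and 0.36 without control library 4. Cd274, which encodes the immune checkpoint ligand PD-L1, rose from 5.58 ± 0.295 to 14.4 ± 3.96 CPM (SD; log2 fold change 1.37, SE 0.24, edgeR adjusted p = 0.0472). This call was lost when any 1 of the 6 libraries was left out, with adjusted p-values from 0.0671 to 0.239. Cd274 was also higher in atherosclerosis than after MI (log2 difference 1.67, edgeR adjusted p = 0.0124), a call lost without MI library 2 (adjusted p = 0.0684) or without MI library 4 (0.0846). In hypertension 8 of the 15 genes were higher (median 0.05, and -0.05 without hypertension library 2 or -0.02 without control library 3), and the smallest p-values were those of the GTPase gene Igtp (0.28, SE 0.17) and Cd274 (0.29, SE 0.24). After MI 12 were lower (median -0.28), with the smallest p-values for Gbp2, another GTPase gene (-0.56, SE 0.25), and Ciita, the master regulator of MHC class II genes (-0.48, SE 0.23).

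Of 18 tested nucleic acid sensors, adaptors and kinases, none passed in any comparison with controls. In atherosclerosis 11 were higher (median 0.25), led by the RNA sensor gene Ifih1 at 26.3 ± 0.79 against 18 ± 0.404 CPM (SD; log2 fold change 0.54, edgeR adjusted p = 0.401) and Zbp1, a sensor of Z-form nucleic acids (0.64, adjusted p = 0.536). In hypertension 11 were lower (median -0.09), with the smallest p-values for the kinase gene Irak4 (-0.35) and the adaptor gene Mavs (0.51). After MI 9 were higher and 9 lower (median -0.02), with the smallest p-values for Traf6 (0.40) and the RNA sensor gene Ddx58 (-0.27).

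Interferon genes themselves gave little signal. Of 10 listed ligands, 8 had 0 counts in every library and Ifnk had at most 4, where 3 counts equal 0.116 to 0.176 CPM, so lower levels were not detectable at this depth. Ifng was the single ligand tested, at 0.846 ± 0.205 CPM in controls, 0.543 ± 0.233 in hypertension, 1.05 ± 0.242 in atherosclerosis and 0.297 ± 0.177 after MI (SD, n = 3). Its log2 fold change after MI was -1.48 (SE 0.50, edgeR adjusted p = 1), with no overlap between the groups.

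None of 9 receptor and JAK kinase genes and none of 9 other IRF and STAT genes passed against controls in any disease. For the receptors and kinases the medians were 0.07 in atherosclerosis, -0.05 in hypertension and -0.12 after MI. The smallest p-values in atherosclerosis were those of Jak1 (log2 fold change 0.46) and Ifngr1 (-0.25). In hypertension they were those of Jak1 (0.47) and Ifnar2 (-0.24), and after MI those of Ifnar1 (-0.37) and Jak2 (-0.16). The other IRF and STAT genes had medians of 0.13 in atherosclerosis, 0.02 in hypertension and -0.21 after MI. Stat4, a signal transducer of interleukin-12 in lymphocytes, had the smallest p-value of this list in each disease. Its log2 fold changes were -0.39 (SE 0.17) in atherosclerosis, -0.49 (SE 0.17) in hypertension and -0.50 (SE 0.17) after MI. It did not pass in any of them (edgeR adjusted p = 0.824, 0.951 and 1). These 3 values are not separate repeats, since all use the same controls (mean 19.3 CPM). The disease means were 14.8 CPM in atherosclerosis, 13.8 in hypertension and 13.7 after MI. Irf4, a lymphocyte factor, was at 0.51 (SE 0.30) in atherosclerosis and -0.60 (SE 0.30) after MI, and Stat5a at -0.34 (SE 0.15) in hypertension.

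Among 13 negative regulators none passed against controls, and the medians were 0.09 in atherosclerosis, 0.05 in hypertension and 0.02 after MI. Usp18, which removes Isg15 from proteins and is itself an interferon target, was at 73.1 ± 35.5 CPM in atherosclerosis against 39.8 ± 4.52 in controls (SD; log2 fold change 0.88, SE 0.45, edgeR adjusted p = 0.86), and at -0.59 (SE 0.45) after MI. Also named by rank within this list were Trim21 in atherosclerosis (log2 fold change 0.27), Irf2bp1 in hypertension (0.49) and Irf2bpl after MI (0.45). Their unadjusted edgeR p-values were 0.164, 0.0821 and 0.139.

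**Figure D5:**
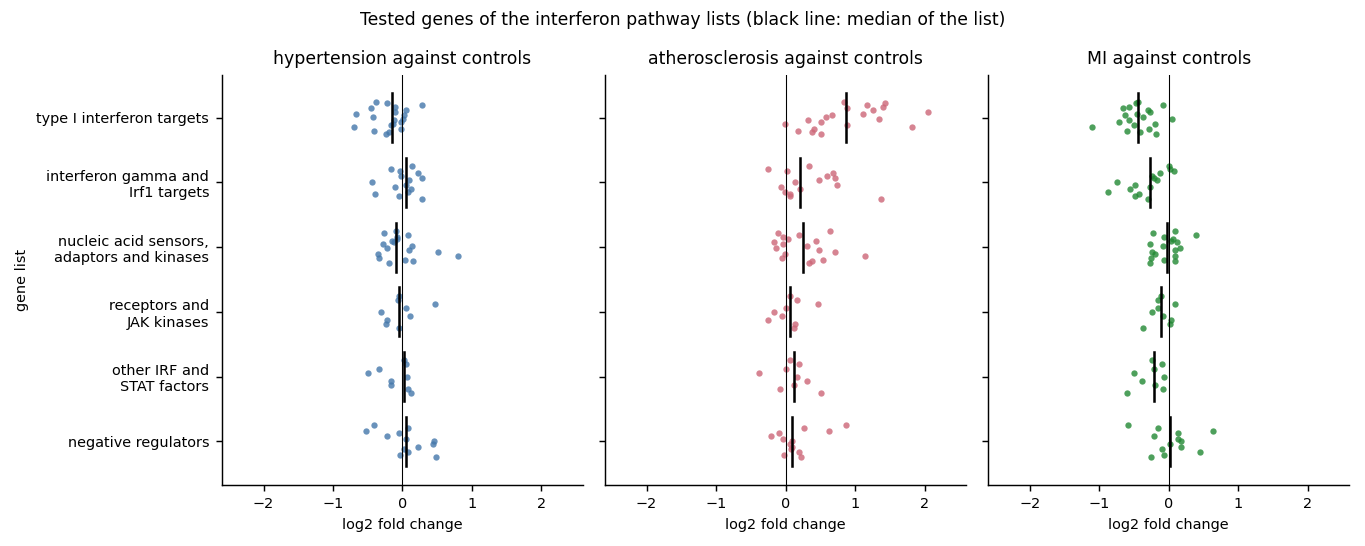
Log2 fold change of each tested gene of 6 pathway lists against the 3 controls, one panel per disease. Points are genes and black lines are list medians. In atherosclerosis 19 of 20 type I interferon targets lie above 0 with a median of 0.86, and after MI 19 of 20 lie below 0 with a median of -0.45 (-0.16 without MI library 2).

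The factors were finally compared by their pattern over the 12 libraries, as Pearson's r of log2 CPM, a description in which all points share libraries and depth. Group means were not removed, so the differences between groups given above enter each r. Irf7 and Irf9 were the most alike pair (r = 0.961), followed by Irf9 and Stat2 (r = 0.853) and by Irf7 and Stat2 (r = 0.719). Irf3 and Stat2 were the least alike (r = -0.08), and Irf2 followed Irf1 little (r = 0.07). Among 13420 other genes, those nearest to Irf7 were Ifit1 (r = 0.972), Oasl2 (r = 0.970) and Rtp4 (r = 0.962), all 3 on the list of type I interferon targets. Oasl2 ran from 4.25 to 89.1 CPM over the libraries. Those nearest to Irf9 were Helz2 (r = 0.976), Ip6k3 (r = 0.972) and Oasl2 (r = 0.964).

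The nearest genes of the other factors were on none of the lists. They were Rasa4, Slc38a2 and Galnt6 for Stat2 (r from 0.893 to 0.899), Grap, Pik3ca and Traf5 for Irf1 (r from 0.921 to 0.943), Zfp322a, Dhcr7 and Luc7l for Irf2 (r from 0.928 to 0.936), Gripap1, Pilrb2 and 5830432E09Rik for Irf3 (r from 0.962 to 0.972), and Scmh1, Arhgef10l and Zfp646 for Irf5 (r from 0.889 to 0.919). All factors but Stat2 overlap another annotated gene. Irf9 shares 123 bases with Rnf31 on the same strand, where reads of either gene are uncertain, and Rnf31 had 329 to 736 counts. Irf1, Irf2, Irf3, Irf5 and Irf7 overlap genes on the opposite strand, by 45 bases with Phrf1 for Irf7 and by up to 1723 bases for Irf2, and the libraries kept strand while the strand setting of the counting was not stated.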

How the data were processed

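RNA of endothelial cells sorted from bone marrow (TER-119- CD41- CD45- CD31hi SCA-1+) was poly(A)-selected and sequenced as strand-specific libraries, 12 in all. The authors aligned reads with STAR 2.7.3a to GRCm38.p6 and deposited raw counts per Ensembl gene, and the strand setting is not given in the sources used here. Libraries held 17007088 to 25136936 counts. Symbols and gene positions came from GENCODE M21, promoters from RefSeq.

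Counts were filtered with filterByExpr, normalized with TMM and tested with edgeR 4.0.16 (quasi-likelihood, 1 coefficient per group, all 12 libraries in one fit), with Benjamini-Hochberg adjustment over 15999 genes and a threshold of 0.05. CPM are TMM-normalized, except for markers and Apoe, which are CPM over the total counts. Group labels set the samples; p-values measure the spread between libraries, which are taken as separate mice. Intervals and floors of 3 counts cover counting error or the fitted spread only. Likeness used log2 CPM with a prior count of 2, among genes with a mean CPM of at least 1. The pipeline was tested on simulated data. Alternatives were another normalization, other filters, the likelihood-ratio test, DESeq2 1.42.0, a replicate block, fits of 2 groups, omission of immunoglobulin and hemoglobin genes, and leaving out each library.

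The members and lists were chosen with earlier results of these data known. Named were the 7 factors, from each list and comparison with controls up to 3 genes past the threshold or otherwise the 2 with the smallest p, the 3 genes most like each factor, and Apoe; a gene that this rule names is not reported here. Ifit1 and Isg15 promoters, Stat4's repeat values and list genes that passed between diseases were added after their values were seen.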

Additional observations from a re-analysis of the deposited data

Results flagged for a closer look

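Irf9 and Stat2 stood on opposite sides of the control mean in different diseases. For Irf9 all 3 atherosclerosis libraries were above the control mean and all 3 MI libraries below it, and the direct difference between these diseases was 1.06 on the log2 scale (SE 0.21, edgeR adjusted p = 0.0596). Stat2 did the same in atherosclerosis and MI (log2 difference 0.49, SE 0.15, edgeR adjusted p = 0.21) and in atherosclerosis and hypertension (0.48, SE 0.15, edgeR adjusted p = 0.517). None of these direct differences passed after adjustment over all genes. Some margins from the control mean were small. For Stat2, atherosclerosis library 3 (35.5 CPM) lay within the control range. The Stat2 log2 fold change against controls was -0.12 (SE 0.15) after MI and -0.10 (SE 0.15) in hypertension. For Irf9, MI library 3 was at 77.4 CPM beside a control mean of 79.3.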

How the results depend on the processing

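None of the 7 factors passed the adjusted threshold in any of the 6 comparisons, and this call changed for Irf7 and Irf9 only. Between atherosclerosis and MI the likelihood-ratio test gave adjusted p-values of 0.00158 for Irf7 and 0.00206 for Irf9, DESeq2 0.000686 and 0.00114, and the fit without a filter on low counts 1.97e-11 and 3.6e-05. Irf9 also passed there without immunoglobulin and hemoglobin genes (adjusted p = 0.0476) and without atherosclerosis replicate 3 (0.0482). Without a filter, Irf7 passed in atherosclerosis against controls (4.46e-06) and against hypertension (0.00018), and Irf9 against controls (0.0432). The cause was not tested.

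Counts of genes past the threshold depended more on the method. In atherosclerosis against controls 23 genes passed, with 81 by the likelihood-ratio test, 81 by DESeq2, 432 without a filter, 7 with the replicate block and 4 when only these 2 groups were fitted. Leaving out 1 library gave 2 to 34. In atherosclerosis against MI 43 genes passed, with 274, 311, 790, 22 and 3 in the same order, 66 without immunoglobulin and hemoglobin genes, and 8 to 93 when 1 library was left out. In atherosclerosis against hypertension 10 genes passed, with 70 by the likelihood-ratio test, 76 by DESeq2 and 235 without a filter, and 3 to 36 when 1 library was left out. In MI against controls 0 genes passed, with 1 by the likelihood-ratio test, 1 by DESeq2, 130 without a filter and 1 with only these 2 groups. In MI against hypertension 0 passed, with 2, 22 and 422 by the first 3 of these. In hypertension against controls 0 passed, with 170 without a filter. The counts moved by no more than 1.5 times with DESeq2's size factors in edgeR or a minimum of 10 counts.

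Under the alternatives other than leaving out a library, signs of the factors turned only for differences near 0. Irf3 in atherosclerosis against MI was at 0.0058 without a filter and 0.062 with the replicate block, and Irf2 in MI against hypertension at -0.029 without a filter. Leaving out 1 library turned signs for larger differences as well, in these ranges of log2 fold change. In atherosclerosis against controls they were -0.037 to 0.23 for Irf1, -0.18 to 0.41 for Irf2 and -0.098 to 0.24 for Irf5. In hypertension against controls they were -0.030 to 0.17 for Irf1, -0.0083 to 0.24 for Irf3, -0.22 to 0.090 for Irf5, -0.0038 to 0.25 for Irf7 and -0.11 to 0.024 for Irf9. In MI against controls they were -0.34 to 0.10 for Irf3 and -0.26 to 0.050 for Rsad2. In atherosclerosis against hypertension the range was -0.12 to 0.16 for Irf1, in atherosclerosis against MI -0.26 to 0.18 for Irf3, and in MI against hypertension -0.079 to 0.092 for Irf2 and -0.042 to 0.011 for Stat2. Leaving out 1 library also moved the medians of lists against controls. For the sensors they ran from 0.05 to 0.35 in atherosclerosis, -0.18 to 0.01 in hypertension and -0.10 to 0.06 after MI, for receptors and JAK kinases from -0.11 to 0.14 in atherosclerosis, -0.20 to 0.04 in hypertension and -0.21 to -0.01 after MI, for other IRF and STAT genes from 0.03 to 0.25, -0.13 to 0.09 and -0.29 to -0.14 in the same order, and for negative regulators from 0.0003 to 0.16, -0.01 to 0.16 and -0.08 to 0.10.

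Replicate numbers were not used to pair the samples, since no label ties them to a shared litter or day. Deviations from the group mean correlated above 0.1 in 5 of 18 same-number pairs (from -0.282 to 0.296). They did so in 12 of 36 pairs with different numbers (from -0.299 to 0.39). With 3 libraries a group, these correlations cannot exclude a shared day or litter. The replicate block changed no call of a factor. It ended the call of Cd274 in atherosclerosis against controls (adjusted p = 0.12), those of Oas1a (0.0618), Rsad2 (0.097) and Ifi44 (0.097) in atherosclerosis against MI, and that of Oas1a against hypertension (0.0905). A fit of only the 2 groups compared ended the calls of all these genes and that of Cd274 against MI. With 3 libraries a group, ratio tests cannot reach p under 0.1.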
